A study of Rattus norvegicus with 12 samples.

Results

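The vesicular glutamate transporters are encoded by Slc17a6 (VGLUT2), Slc17a7 (VGLUT1) and Slc17a8 (VGLUT3), and their expression was followed in the rat inferior colliculus (IC), the auditory centre of the midbrain. Each of the 3 genes, out of 18166 genes measured, was read from the probe listed with that symbol alone; where a gene has several such probes the rule keeps the one with the highest mean over the 12 arrays, and here each gene had 1. The family was chosen by its levels and deaf minus control differences on these same arrays, so these values are given as a description. The single-sided deaf rats had the right cochlea ablated, and the control rats had a sham operation with an incision behind the ear and no drilling of the bulla. All rats were of the SD strain, with 20 in each arm, and tissue was taken 2 weeks after surgery at an age that no label used here states. The 12 arrays form 4 groups of 3: left IC of deaf rats, left IC of control rats, right IC of deaf rats and right IC of control rats. No label states how many rats went into an array or ties a left array to a right array of the same rats, so each p-value rests on array-to-array spread that may in part be technical.

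These transporters load glutamate into synaptic vesicles, driven by the gradient that the vacuolar proton pump sets up, and a neuron that carries 1 of them can release glutamate. VGLUT2 is the main form of brainstem and midbrain neurons, VGLUT1 is the main form of the cerebral cortex, hippocampus and cerebellar granule cells and is also made in the cochlear nucleus, and VGLUT3 occurs in scattered neurons that often release serotonin or acetylcholine as well, and in the inner hair cells of the cochlea. In the IC, VGLUT2 mRNA is the main form in local excitatory neurons, while much of the VGLUT1 protein sits in endings of fibres whose cell bodies lie elsewhere. Ascending input crosses for the most part, so the left IC is driven mainly by the ear that was ablated and the right IC by the intact ear.

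The stretches upstream of the 3 genes are shown because the genes have the same transport function but did not have the same pattern over the groups. They are the 250 bases before the start in RefSeq (build GRCr8), and all 3 genes were matched. The stretch of Slc17a6 lies at chr1:110348197-110348446 (+ strand), that of Slc17a7 at chr1:104785955-104786204 (+ strand) and that of Slc17a8 at chr7:25935411-25935660 (- strand). Capitals mark matches on either strand to the GC box GGGCGG, the E-box CAGNTG, the CRE half-site TGACG, the TATA box TATAAA or the CCAAT box CCAAT.
Slc17a6: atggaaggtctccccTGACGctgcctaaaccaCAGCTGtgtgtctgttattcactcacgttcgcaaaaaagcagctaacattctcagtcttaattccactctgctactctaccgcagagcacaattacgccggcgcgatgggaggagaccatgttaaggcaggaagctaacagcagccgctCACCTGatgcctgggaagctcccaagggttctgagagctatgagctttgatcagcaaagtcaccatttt
Slc17a7: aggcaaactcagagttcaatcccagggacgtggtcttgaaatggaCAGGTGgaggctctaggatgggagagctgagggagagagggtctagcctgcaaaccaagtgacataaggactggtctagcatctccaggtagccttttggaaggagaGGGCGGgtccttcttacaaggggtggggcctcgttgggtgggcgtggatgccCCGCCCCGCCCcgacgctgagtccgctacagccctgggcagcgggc
Slc17a8: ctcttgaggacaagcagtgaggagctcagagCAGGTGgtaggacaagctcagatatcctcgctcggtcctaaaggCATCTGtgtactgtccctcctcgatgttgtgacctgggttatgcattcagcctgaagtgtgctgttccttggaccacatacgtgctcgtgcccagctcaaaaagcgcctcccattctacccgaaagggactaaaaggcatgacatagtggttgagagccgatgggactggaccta
The Slc17a7 stretch holds 3 GC boxes, starting at -98, -46 and -41, of which the last 2 overlap by 1 base, and those of Slc17a6 and Slc17a8 hold 0. Of 33465 rat promoters of the same length, 30.5% hold a GC box. An E-box occurs at 2 positions for Slc17a6, 1 for Slc17a7 and 2 for Slc17a8, and 43.3% of promoters hold 1 or more. Slc17a6 also holds 1 CRE half-site, found in 18.2% of promoters. The TATA box (12.9% of promoters) and the CCAAT box (34.0%) were not matched in the 3 stretches. The GC content was 50.8% for Slc17a6, 61.2% for Slc17a7 and 53.2% for Slc17a8. These matches describe letters only, and no measurement in this study bears on binding there. A link between these stretches and the values of the groups was not tested.

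Values are log2 intensities as deposited, with the same distribution on every array (median 5.34 and lower quartile 3.78 over all probes), so 1 unit is a doubling of signal. Probes differ in how brightly they report, so the level of a gene is compared between arrays and not with the level of another gene. Slc17a6 gave a signal above 97.5% to 98.4% of genes on each array, Slc17a7 above 27.7% to 71.4% and Slc17a8 above 29.3% to 39.6%. No detection calls were used, so the differences of Slc17a7 and Slc17a8 are given as measured. Because fewer cells of a type and less RNA per cell give the same signal in bulk tissue, the 2 cannot be told apart.

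The tissue label was checked with regional markers. Hippocampus is named in the title of the series and in the description of each sample, whereas sample titles, source names and tissue entries name the IC. A noise group is also named among the labels that name hippocampus, whereas the sample titles name control and single-sided deaf groups. Probe brightness differs, so the levels describe only where each marker lay among the genes, whose median was 5.97. Of 12 measured markers of the midbrain tectum 8 lay above that median. Tfap2d, a transcription factor gene known from the mouse IC, was at 9.39 to 9.79 on the 12 arrays, whereas Pax7 was at 4.77 to 5.69 and Dmbx1 at 3.83 to 4.32. Of 13 measured markers of cortex and hippocampus 6 lay above the median. Neurod6, a gene of cortical and hippocampal excitatory neurons, was at 2.92 to 4.08 and Tbr1 at 4.09 to 4.82, whereas Lamp5 was at 6.16 to 7.84 and Nrgn, a neuronal calmodulin-binding protein gene, at 11.0 to 11.4. The lists alone thus do not settle the tissue label.

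**Figure D1:**
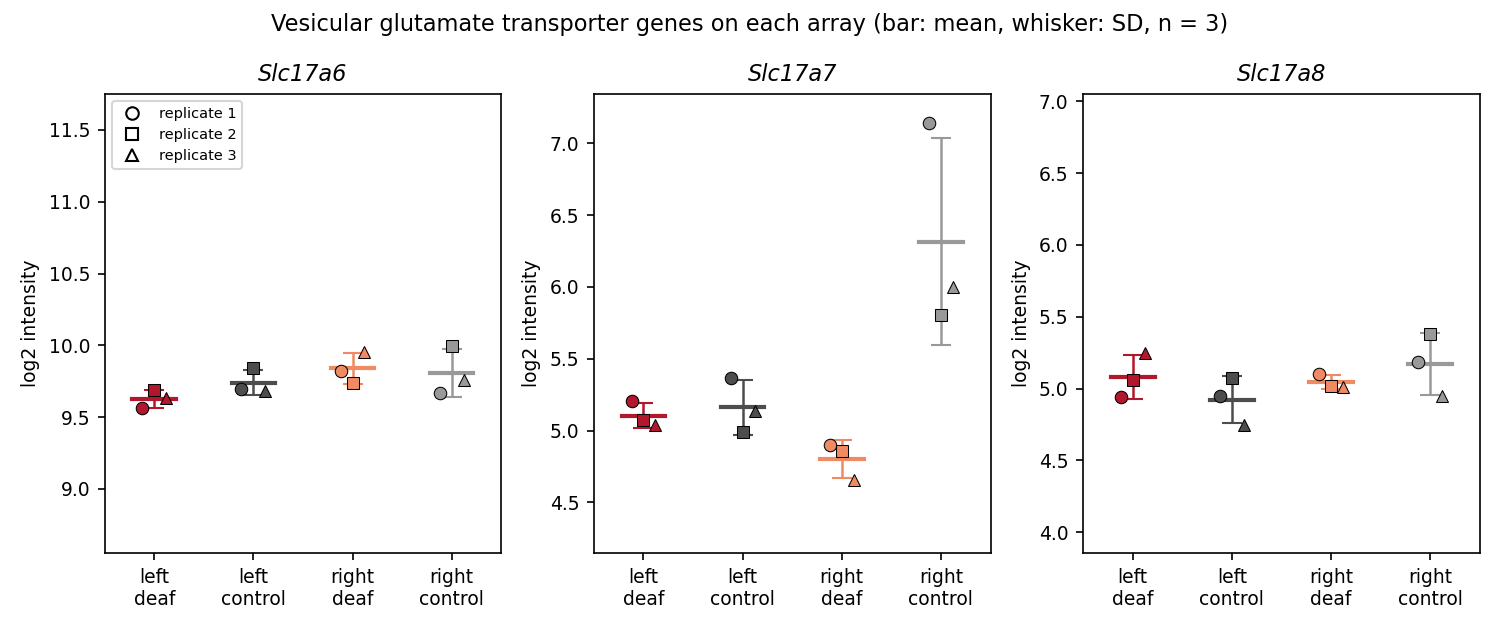
Log2 intensity (vertical axis, each panel spanning the same number of log2 units) of Slc17a6, Slc17a7 and Slc17a8 on each of the 12 arrays, by group; symbols give the replicate number, bars the mean and whiskers the SD (n = 3). The 3 right control arrays of Slc17a7 lie at 5.81 to 7.14, above its other arrays, while the groups of Slc17a6 and Slc17a8 lie within narrow ranges.

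Slc17a7, the VGLUT1 gene, was the member with the widest range. In the right IC it was at 4.90, 4.86 and 4.65 on deaf arrays 1, 2 and 3, against 7.14, 5.81 and 5.999 on control arrays 1, 2 and 3. In the left IC it was at 5.20, 5.07 and 5.04 on deaf arrays, against 5.36, 4.99 and 5.13 on control arrays. The 3 right deaf arrays were thus below all 9 others, and the 3 right control arrays were above all 9 others. The highest right deaf value, 4.90, was close to the lowest other value, 4.99 on left control 2. Genes with right deaf arrays below all others were not counted. An order with right control arrays above all the others was found for 105 of 18166 genes (0.578%). The SD was 0.13 in right deaf arrays, against 0.72 in right control arrays, the widest of the 4 groups, and 0.087 in left deaf arrays, against 0.19 in left control arrays.

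The right-side difference of Slc17a7, deaf minus control, was -1.51 (SE 0.26, 95% interval -2.09 to -0.93, n = 3 arrays per group), which is 2.85-fold lower in deaf arrays. This difference was known from earlier results of these data when the gene family was chosen, so it is a description and not independent evidence. By p-value it ranked 1 of 18166 genes on the right, and by size it ranked 2 among lower genes. It did not pass over all genes (limma adjusted p = 1.00). With limma 0 of 18166 genes (0%) passed on the right, against 783 (4.31%) at an unadjusted p under 0.05. Arrays of the right groups did not overlap, with deaf lower, for 697 genes (3.84%). With 3 arrays against 3 the smallest two-sided p of an exact permutation test is 0.1.

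On the left, the side driven mainly by the ablated ear, Slc17a7 differed by -0.058 (SE 0.26, interval -0.63 to 0.52; limma adjusted p = 1.00), and the arrays overlapped. With limma 0 genes (0%) passed on the left, against 670 (3.69%) at an unadjusted p under 0.05. The left difference minus the right difference was 1.45 (SE 0.37, interval 0.64 to 2.27; limma adjusted p = 1.00), with 0 genes (0%) past the threshold and 622 (3.42%) at an unadjusted p under 0.05. Averaged over the sides, deaf minus control was -0.78 (SE 0.19; limma adjusted p = 0.998), a mean of unequal sides, and the arrays of the arms overlapped. There, 0 genes (0%) passed, against 823 (4.53%) at an unadjusted p under 0.05.

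Between the sides of deaf rats, Slc17a7 had a left minus right difference of 0.30 (SE 0.26; limma adjusted p = 1.00), and the arrays did not overlap, as for 678 genes (3.73%) with higher left values. In control rats the order was the other way, with left minus right at -1.15 (SE 0.26; limma adjusted p = 0.870). There, too, the arrays did not overlap, as for 879 genes (4.84%) with lower left values, and with limma 0 genes (0%) passed, against 900 (4.95%) at an unadjusted p under 0.05. The comparison of sides in control rats shares its right control arrays with the right-side comparison of deaf and control rats, so the values are not separate evidence. In order of level, right control (6.31) came first, followed by left control (5.16), then left deaf (5.10) and last right deaf (4.80), and of neighbours in this order only left control and left deaf overlapped.

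**Figure D2:**
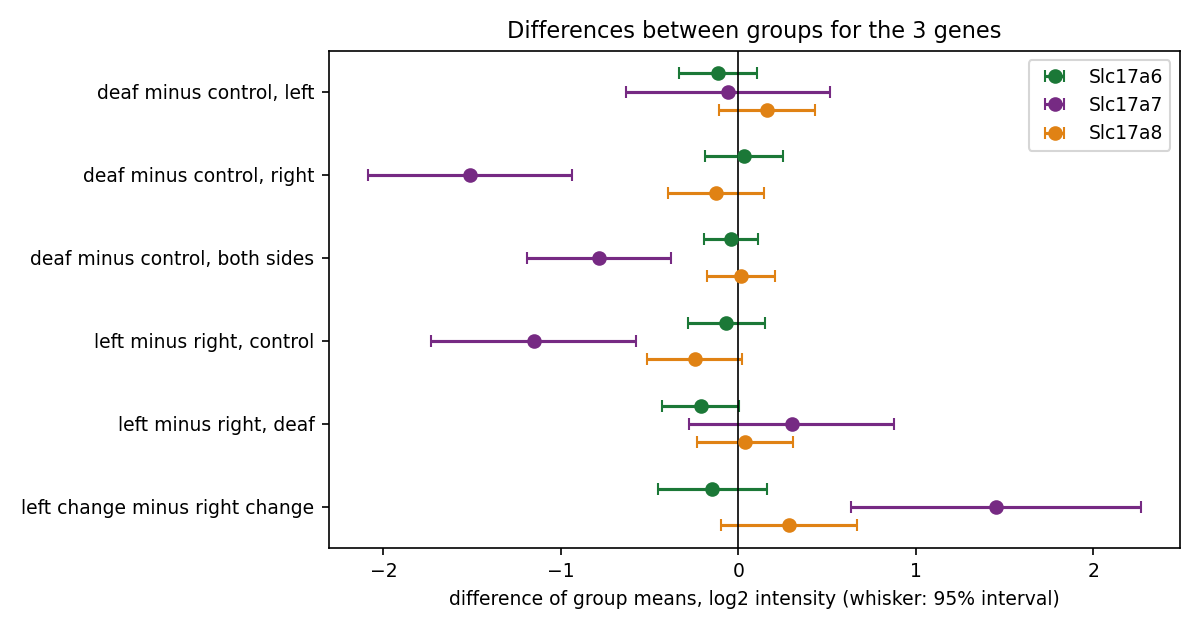
Differences of group means in log2 units (horizontal axis) for the 6 comparisons of Slc17a6, Slc17a7 and Slc17a8; points give the estimate from the fit to all 12 arrays and whiskers its 95% interval. The right-side difference of Slc17a7, -1.51, lies apart from those of Slc17a6 (0.032) and Slc17a8 (-0.13).

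Right control array 1 held the highest Slc17a7 value, and leaving it out gave a right-side difference of -1.10 (SE 0.13; limma adjusted p = 0.0619). Without right control 2 it was -1.77, and without right control 3 it was -1.67. The adjusted p was 0.0619 to 1.00 over the 12 fits with 1 array left out. With right controls 1 and 3 both omitted it was -1.002 (SE 0.16), where the lone right control array is assumed to vary like the other groups. The side difference in control rats, which uses the same right control mean, was -0.74 without right control 1 against -1.15 with it, and without right controls 1 and 3 the left change minus the right change was 0.94, against 1.45 with them.

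**Figure D3:**
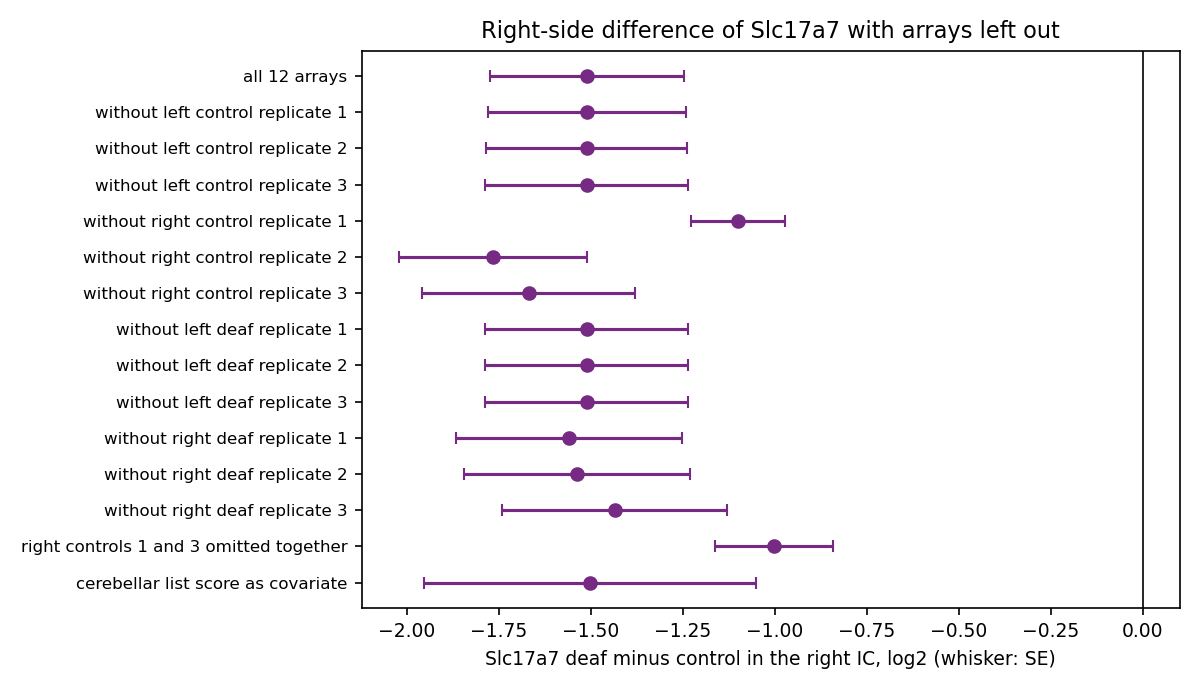
Right-side difference of Slc17a7, deaf minus control in log2 units (horizontal axis), with all 12 arrays, with each array left out, with right controls 1 and 3 omitted and with the cerebellar marker score as a covariate; whiskers give the SE. The estimates run from -1.77 to -1.002.

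Markers of cerebellar neurons were high on some of the same arrays. Gabra6, a GABA receptor subunit gene of granule cells, was at 2.51, 3.19 and 2.83 on right deaf arrays 1, 2 and 3, against 3.86, 3.99 and 5.30 on right control arrays 1, 2 and 3. Cbln3, a granule cell gene, was at 4.29, 4.37 and 4.13 on right deaf arrays, against 5.34, 4.78 and 6.23 on right control arrays. Both were highest on right control 3, whereas Slc17a7 was highest on right control 1. Of 19 measured cerebellar markers 16 had lower means in right deaf arrays, with 0 past the threshold and a median difference of -0.18, against 49.5% of all genes lower and a median of 0.0014. Of the 19, 8 were lower without overlap, against 3.84% of all genes. The score of the list, the mean of its log2 values after subtracting each gene's mean over the arrays, was -0.12 to -0.087 in right deaf arrays and 0.038 to 0.51 in right control arrays. It was -0.084 to -0.018 in left deaf and -0.15 to -0.041 in left control arrays. With that score as a covariate the right-side difference of Slc17a7 was -1.50 (SE 0.45; limma adjusted p = 0.801). The score itself differed between the right groups without overlap, so this fit cannot separate it from the group difference. The part of cerebellar tissue in the Slc17a7 values was not tested.

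Across the 12 arrays Slc17a7 had r = 0.71 with Cbln3 (Spearman 0.83), 0.67 with Fat2 (0.62), a cadherin gene of granule cells, and 0.61 with Gabra6 (0.66). After the group means were subtracted, r was 0.063 with Cbln3, 0.034 with Fat2 and -0.34 with Gabra6. Some markers of other kinds had higher values within groups. For these, r was 0.74 with the forebrain marker Lamp5 (group means subtracted 0.68) and 0.63 with Chat, the acetylcholine synthesis enzyme gene (0.65). It was 0.19 with Slc6a4, the serotonin transporter gene (0.61), and 0.21 with Tph2, the serotonin synthesis enzyme gene (0.56). Others had lower values: with group means subtracted, r was -0.0061 with the forebrain marker Neurod2, 0.18 with Gad1 and 0.13 with Slc32a1, both genes of GABA neurons. Without right controls 1 and 3, r was 0.31 with Lamp5, 0.39 with Chat, -0.31 with Slc6a4 and -0.17 with Tph2. On the same arrays it was 0.66 with Cbln3, 0.47 with Fat2, 0.59 with Gabra6 and 0.052 with Neurod2. With the genes of GABA neurons it was 0.59 for Slc32a1, as high as for Gabra6, and 0.28 for Gad1. The arrays share groups and dissections, and these values are descriptions.

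Markers of other brainstem neurons stood high on right control 1. Slc6a5, the glycine transporter gene of glycine neurons, was at 5.06, 5.14 and 5.33 on right deaf arrays, against 7.23, 5.56 and 4.65 on right control arrays 1, 2 and 3. Slc5a7, the choline transporter gene of acetylcholine neurons, was at 4.31, 5.01 and 4.57 on right deaf arrays, against 6.41, 5.53 and 4.53 on right control arrays. In contrast to Slc17a7, neither was high on right control 3. The score of the 3 acetylcholine markers was -0.32 to -0.17 in right deaf arrays and -0.19 to 0.94 in right control arrays. On the left it was -0.23 to -0.20 in deaf and -0.023 to 0.45 in control arrays. The score of the 4 measured GABA and glycine markers was -0.038 to 0.0024 in right deaf arrays and -0.22 to 0.52 in right control arrays, and on the left -0.19 to -0.15 in deaf and -0.058 to 0.11 in control arrays.

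Tph2 was at 4.80, 7.50 and 5.59 on right deaf arrays, against 7.64, 5.11 and 4.77 on right control arrays. On the left it was at 5.06, 5.53 and 7.80 on deaf arrays, against 6.65, 5.21 and 6.03 on control arrays. It was thus high on arrays of deaf rats where Slc17a7 was low, as well as on right control 1. The serotonin score was -0.43 to 0.50 in right deaf and -0.44 to 0.70 in right control arrays, and on the left -0.31 to 0.80 in deaf and -0.24 to 0.11 in control arrays. Cortical and hippocampal markers had lower right deaf means in 11 of 13 members (49.5% over all genes), 0 of them without overlap. Nrgn went the other way, higher in right deaf arrays without overlap, at 0.18 (SE 0.099), as for 3.64% of all genes. The scores of this list were -0.085 to 0.036 in right deaf and 0.11 to 0.19 in right control arrays. On the left these scores were -0.080 to -0.032 in deaf and -0.096 to -0.056 in control arrays. Markers of oligodendrocytes, which make myelin, also had lower right deaf means in 9 of 9 members (49.5% over all genes), 4 of them without overlap (3.84% over all genes). Their scores were -0.093 to 0.0046 in right deaf and 0.026 to 0.17 in right control arrays. On the left, where Slc17a7 overlapped, 7 of 9 were lower in deaf arrays (51.8% over all genes), 3 of them without overlap (5.7%). The left scores were -0.12 to -0.042 in deaf and -0.00039 to 0.030 in control arrays, so these markers were lower on both sides. Markers of neurons in general had higher right deaf means in 6 of 10 members (median 0.029) and those of the midbrain tectum in 7 of 12 (median 0.016), against 50.5% of all genes. Hbb-b1, a haemoglobin gene and the 1 measured blood marker, was at 8.28, 8.47 and 7.89 on right deaf arrays, against 8.75, 8.73 and 8.58 on right control arrays. On the left it was at 7.94, 8.45 and 8.01 on deaf arrays, against 8.43, 8.37 and 8.14 on control arrays. Like Slc17a7, it was higher on the 3 right control arrays than on all 9 others, with a right-side difference of -0.48 (SE 0.16). None of these marker genes passed over all genes. The part of blood and of tissue outside the IC in the Slc17a7 values was not tested.

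**Figure D4:**
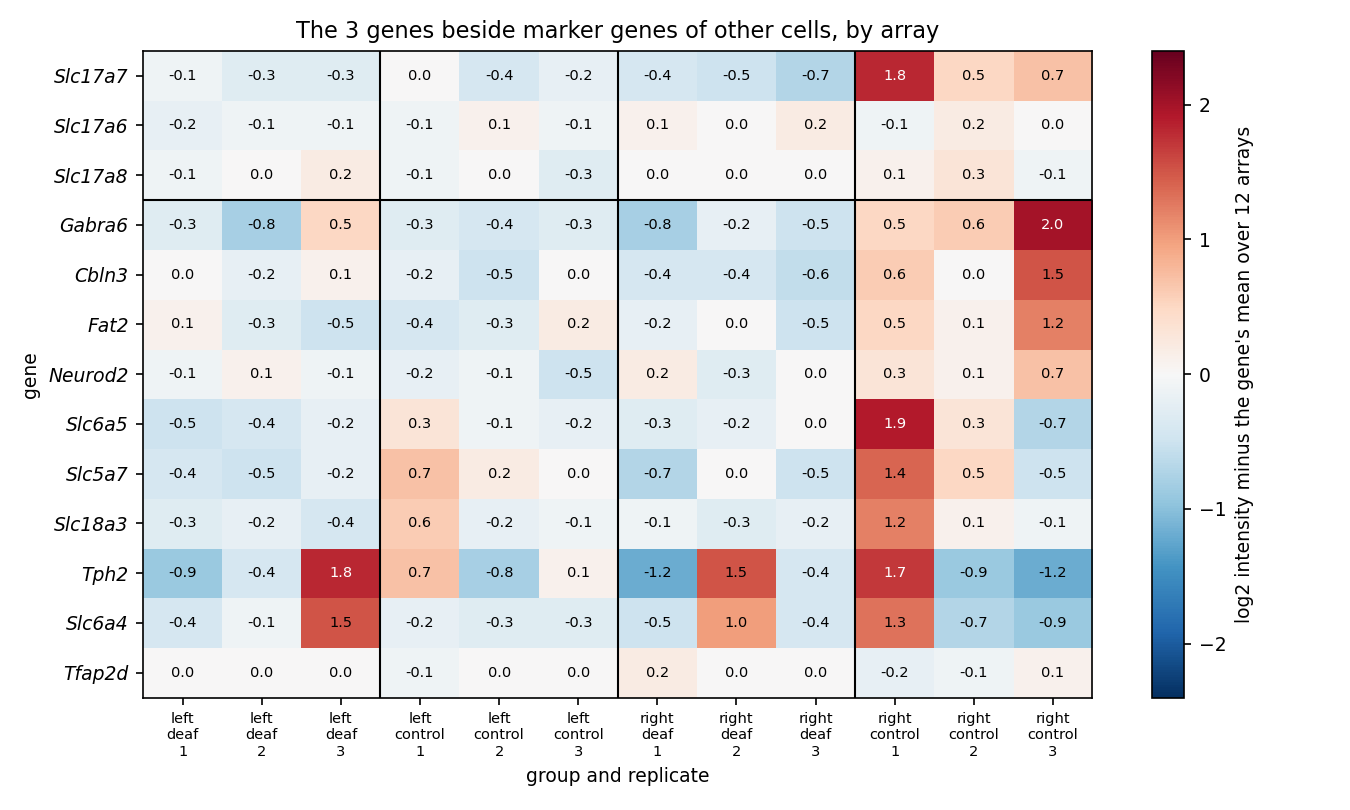
Log2 intensity minus the mean of the gene over the 12 arrays (colour and number) for the 3 transporter genes, cerebellar markers (Gabra6, Cbln3, Fat2), the forebrain marker Neurod2, glycine (Slc6a5), acetylcholine (Slc5a7, Slc18a3) and serotonin (Tph2, Slc6a4) markers and the IC marker Tfap2d, by array. Slc17a7 and Slc6a5 are highest on right control 1, the cerebellar markers on right control 3.

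Slc17a6, the VGLUT2 gene and the main form of local IC neurons, varied little. On the left it was at 9.56, 9.69 and 9.63 on deaf arrays, against 9.70, 9.84 and 9.68 on control arrays. On the right it was at 9.82, 9.74 and 9.95 on deaf arrays, against 9.67, 9.99 and 9.76 on control arrays. Its 12 values thus lay between 9.56 and 9.99, and the deaf and control arrays overlapped on each side. Deaf minus control was -0.11 on the left (SE 0.0998, interval -0.33 to 0.10) and 0.032 on the right (SE 0.0998, interval -0.19 to 0.25), with limma adjusted p = 1.00 for each. The sign of the right-side value turned with settings, to -0.042 with array weights.

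The widest Slc17a6 difference was between the sides of deaf rats. All 3 left deaf arrays were below all 3 right deaf arrays, with left minus right at -0.21 (SE 0.0998, interval -0.43 to 0.0049; limma adjusted p = 1.00). Arrays did not overlap, with left lower, for 832 genes (4.58%), and with limma 0 genes (0%) passed, against 607 (3.34%) at an unadjusted p under 0.05. In control rats left minus right was -0.067 (SE 0.0998), with overlapping arrays, and the difference of the side differences was -0.15 (SE 0.14; limma adjusted p = 1.00). In order of level, right deaf (9.84), right control (9.81), left control (9.74) and left deaf (9.63) each overlapped with the next.

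Slc17a8, the VGLUT3 gene, was dim on every array. On the left it was at 4.94, 5.06 and 5.24 on deaf arrays, against 4.95, 5.07 and 4.75 on control arrays. On the right it was at 5.10, 5.02 and 5.01 on deaf arrays, against 5.18, 5.38 and 4.95 on control arrays. The groups overlapped in every pairing of the design. Deaf minus control was 0.16 on the left (SE 0.12, interval -0.11 to 0.43) and -0.13 on the right (SE 0.12, interval -0.40 to 0.14), with limma adjusted p = 1.00 for each. Left minus right was 0.039 in deaf rats (SE 0.12) and -0.25 in control rats (SE 0.12; limma adjusted p = 0.934). In order of level, right control (5.17), left deaf (5.08), right deaf (5.04) and left control (4.92) each overlapped with the next. With the cerebellar score as a covariate the right-side value was -0.45 (SE 0.17; limma adjusted p = 0.816).

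The 3 genes did not share a pattern over the arrays. Slc17a7 had r = -0.14 with Slc17a6 (Spearman -0.29) and 0.28 with Slc17a8 (-0.014), and Slc17a6 had r = 0.38 with Slc17a8 (0.25), over 12 arrays. After the group means were subtracted, Slc17a7 and Slc17a6 had r = -0.73. Without right controls 1 and 3, and with the group means kept, their r was 0.080. On right control 1, where Slc17a7 was highest in its group, Slc17a6 was lowest in its group.

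**Figure D5:**
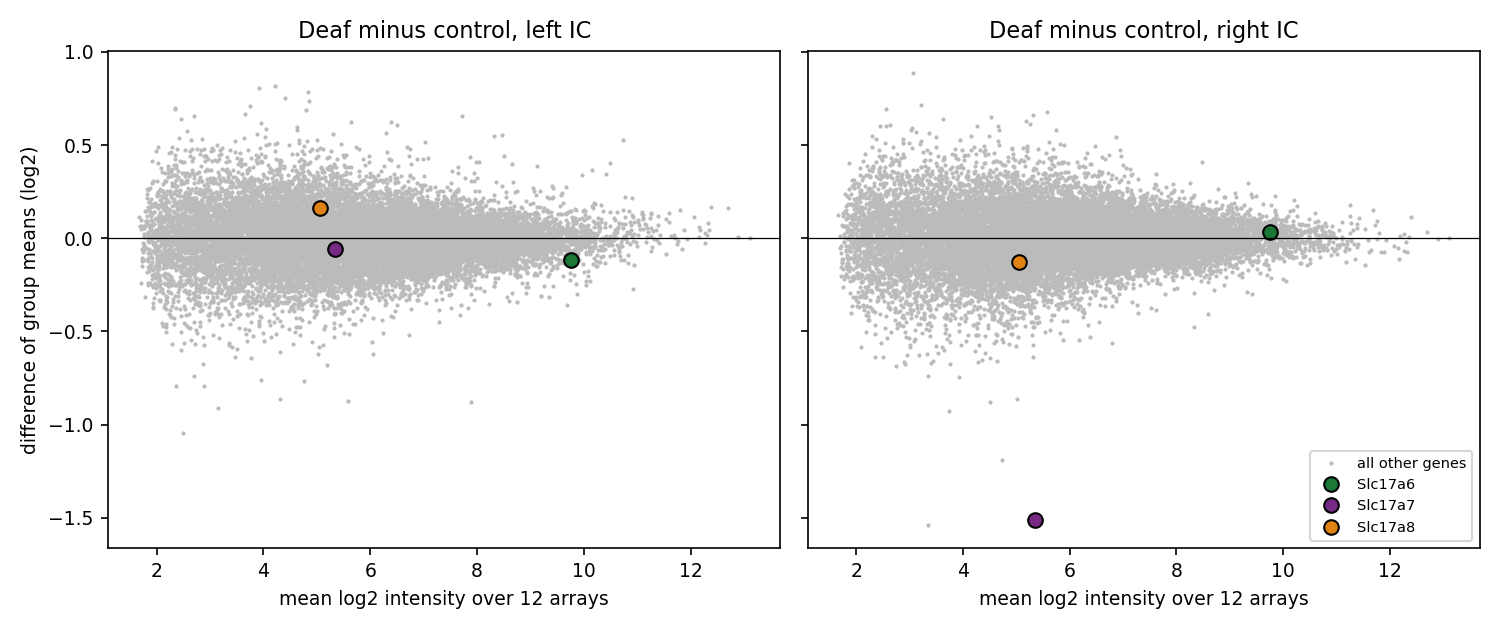
Difference of group means, deaf minus control in log2 units (vertical axis), against the mean log2 intensity over the 12 arrays (horizontal axis) for 18166 genes in the left and the right IC, with the 3 transporter genes marked. Slc17a7 is at -0.058 on the left and at -1.51 on the right, near the lower edge of all genes.

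The genes most like each member over the 12 arrays were taken from those above the median level with an official name. For Slc17a7 they were Crk, a signalling adaptor gene (r = 0.93, Spearman 0.91), Ctsa, a lysosomal protease gene (0.91, 0.59), Spock1, a proteoglycan gene (0.86, 0.87), Idi1, an isoprenoid synthesis gene (0.83, 0.67), and Pgap2 (0.83, 0.55). Without right controls 1 and 3, the arrays farthest from the median of Slc17a7, r was 0.70 for Crk, 0.76 for Spock1 and 0.20 for Pgap2. Their right-side differences were nearer to 0 than that of Slc17a7, at -0.14 for Crk and -0.18 for Spock1. For Slc17a6 they were Tmem198 (r = 0.92), Cltc, the clathrin heavy chain gene (0.89), Atp1b1, a sodium pump subunit gene (0.85), Rb1cc1, an autophagy gene (0.84), and Ptp4a1, a phosphatase gene (0.84). For Slc17a8 they were Exosc8, an RNA exosome gene (0.88), Rab8b, a small GTPase gene (0.81), Prorp, a mitochondrial tRNA processing gene (0.80), Far1 (0.80) and Uprt (0.78). These were picked as the highest of 8938 or 8939 candidates, so high values are a result of the choice.

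Of the other members of the SLC17 family, none of the 5 measured (Slc17a2, Slc17a3, Slc17a4, Slc17a5 and Slc17a9) passed over all genes or had arrays that did not overlap between deaf and control rats on either side. On the right Slc17a9, which encodes the vesicular nucleotide transporter, was at 0.17 (SE 0.14), and Slc17a5, which encodes the lysosomal sialic acid transporter sialin, at 0.062 (SE 0.16).

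Genes that supply glutamate or take it up were split on the right: of 17 measured, 8 had higher and 9 lower means, with 0 past the threshold, 0 without overlap and a median of -0.0019. Among them were Slc1a3, an astrocyte glutamate transporter gene, at -0.17 (SE 0.0999), and Slc25a22, a mitochondrial glutamate carrier gene, at 0.17 (SE 0.16). On the left 12 of the 17 had lower means, against 51.8% of all genes, with a median of -0.017, against -0.0051 over all genes. There Slc25a12, a mitochondrial aspartate-glutamate carrier gene, was at -0.13 (SE 0.070), with arrays that did not overlap, as for 1036 genes (5.7%) with lower left deaf values.

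The vacuolar proton pump, which drives vesicle loading, was likewise at a median of 0.0066 on the right and -0.0087 on the left over 17 subunit and accessory genes. None of them passed on either side, and the smallest right-side p-values belonged to genes at -0.074 (SE 0.081), Atp6v1h, and -0.091 (SE 0.11), Atp6v1c1. Of 15 measured genes of vesicle release and recycling, 11 had higher means on the right and 10 on the left, with 0 past the threshold and medians of 0.038 and 0.045. Over all genes, 50.5% had higher means on the right and 48.2% on the left.

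A further list held other synaptic vesicle membrane proteins: transporters of other transmitters and of zinc, the SV2 glycoproteins and related genes. On the right 8 of its 10 members had lower means (median -0.21), against 49.5% of all genes. On the left 6 of 10 had lower means (median -0.061), against 51.8% of all genes, with 0 past the threshold on either side. Of all genes, 3.84% were lower in deaf arrays without overlap on the right and 5.7% on the left. Sv2c, an SV2 glycoprotein gene, had arrays that did not overlap on either side. Its deaf minus control difference was -0.40 (SE 0.13) on the right and -0.39 (SE 0.13) on the left. Slc18a3, the vesicular acetylcholine transporter gene, was at -0.66 (SE 0.28) on the right, also without overlap, and was highest on right control 1, at 5.56. Slc18a1, a vesicular monoamine transporter gene, went the other way, at 0.18 (SE 0.082) on the right, higher in deaf arrays without overlap, as for 661 genes (3.64%), and at 0.16 (SE 0.082) on the left, with overlap. Slc30a3, the vesicular zinc transporter gene of cortical glutamate neurons, was at -0.27 (SE 0.14) on the right, with overlapping arrays. Slc32a1, which loads GABA and glycine, was at -0.14 (SE 0.10) on the right and -0.11 (SE 0.10) on the left. The GABA synthesis genes Gad1 and Gad2 were at 0.040 (SE 0.12) and 0.038 (SE 0.079) on the right. Gad1 was at -0.23 (SE 0.12) on the left, where it was lower without overlap, as for 5.7% of all genes.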

How the data were processed

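IC RNA was measured on Affymetrix arrays of 1 colour after cDNA synthesis and biotin labelling, per the labels' protocols. The values deposited by the authors are log2 intensities, 1.33 to 13.1 over all arrays. Sorted values of different arrays lay within 0.0995 of each other, so the values are quantile-normalized in effect. No source used here names the array model, software or genome build. Precision is limited by how many arrays there are.

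Of 29489 probes, 18511 have 1 gene symbol in GEO's platform annotation, 575 have several and 10403 none. The brightest probe was kept for the 291 genes with more than 1, which left 18166 genes, with no filter on dim genes. Linear models with 4 group means were fitted to all genes and arrays with limma 3.58.1 in R 4.3.3 (8 residual and 3.79 prior degrees of freedom). Tests were two-sided, with Benjamini-Hochberg adjustment over all genes of a comparison at a threshold of 0.05. The fit was tested on simulated data. Upstream sequences are from RefSeq.

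The members and the 20 gene lists (175 of 200 different genes measured) were chosen with earlier results of these data known. Named genes are the members, the 5 genes above the median level of highest Pearson r with each, fixed markers, and, per list, up to 4 of smallest right-side and 2 of smallest left-side p-value, given where they bear on the members. The main fit did not pair arrays by replicate number. Deviations from group means of same-numbered left and right arrays of an arm had r of -0.064 to 0.33. Those of differently numbered left and right arrays had r of -0.26 to 0.16, and those of same-numbered deaf and control arrays -0.27 to 0.21. These ranges overlap, so they do not settle whether same-numbered left and right arrays share rats. Alternatives were other normalizations, probe choices, variance models, array weights, blocks, a marker covariate and omitted arrays.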

Additional observations from a re-analysis of the deposited data

How the results depend on the processing

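Over the 18 differences of the 3 genes and the alternatives tried, 388 values kept their sign and their side of the threshold and 17 turned sign, all of them for differences of Slc17a6 and Slc17a8 or for the left-side difference of Slc17a7. None of these values passed the adjusted threshold. The right-side value of Slc17a6 turned to -0.042 with array weights, -0.15 without right controls 1 and 3 together and -0.12 with the cerebellar covariate, and its interaction to 0.041 and 0.021 in the last 2. The mean over both sides of Slc17a8 turned to -0.011 with array weights, -0.087 without right controls 1 and 3 together and -0.13 with the covariate. The cause was not tested. With 1 array left out, the values that turned ran from -0.037 to 0.13 (Slc17a6 right), -0.076 to 0.0059 (Slc17a6 both sides), -0.14 to 0.026 (Slc17a6 sides in control), -0.15 to 0.044 (Slc17a7 left), -0.038 to 0.069 (Slc17a8 both sides) and -0.042 to 0.11 (Slc17a8 sides in deaf). Without right controls 1 and 3 together, the side difference of Slc17a7 in control rats was -0.64 and its interaction 0.94, against -1.15 and 1.45. The count of genes past the threshold, 0 in each comparison, was 1 among genes above the median level (left, and sides in deaf), 1 (left) and 2 (sides in deaf) with a variance trend, and 1 for the interaction at an adjusted p under 0.1. It was 0 to 1 with 1 array left out, with the 1 found without left deaf 3 (left) and without right control 3 (both sides). At an unadjusted p under 0.05 it was 670, 783 and 823 (left, right, both sides), 607 and 900 (sides in deaf and in control rats) and 622 (interaction). With the replicate number as a block it was 1 for the sides in control and 1 for the interaction, and the right-side difference of Slc17a7 stayed at -1.51 (limma adjusted p = 0.685). The block by number within arm gave 0 calls. Signals in the lower part of the array range, those of Slc17a8 and of Slc17a7 outside the right control arrays, limit the size of a difference that can be seen.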
